A study of Mus musculus with 9 samples.

Results

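The 10 genes described here belong to the Toll-like receptor and NF-kappaB pathway. They are the receptors Tlr2 and Tlr4, the adaptor Myd88, the inhibitors Nfkbia, Nfkbie and Tnfaip3, the transcription factor subunits Relb, Nfkb1 and Nfkb2, and the ubiquitin ligase Birc3. They were chosen by symbol, and each of the 10 was found among the 53700 genes of the deposited count table. Of the 10, 9 had enough counts to be tested, and Birc3, with 11 counts over all 9 libraries together, did not.

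Toll-like receptors sit in the membrane and recognise microbial products and molecules released by damaged cells. Through adaptors such as MyD88 they activate the IkappaB kinase (IKK), which marks the IkappaB inhibitors for destruction and so releases NF-kappaB dimers to the nucleus. There NF-kappaB switches on cytokine and chemokine genes together with its own inhibitors, among them Nfkbia, Nfkbie and Tnfaip3, so that the pathway limits itself. In muscle the pathway is known for its part in wasting, in the cytokine output of muscle cells and in their response to saturated fatty acids.

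RNA was measured in C2C12, an established mouse line of myoblasts, the precursors that can fuse into myotubes. All wells had been starved for 12 h in OPTI-MEM, a medium made for low serum, and the 3 Control libraries came from wells collected at that point. The 3 Valine libraries came from wells that then received valine, an essential branched-chain amino acid, at 0.45 mM for 36 h more. The 3 Val+PA libraries came from wells that received 0.45 mM valine for 24 h and the saturated fatty acid palmitic acid at 75 µM for 12 h. Every group filled a single plate of 6 wells, and 3 of those wells were picked at random for sequencing. The p-values therefore measure the spread between wells of a plate, and plate, time in culture and treatment cannot be told apart. The measured levels are those of the whole well, in which fewer cells of a type and less RNA per cell cannot be told apart.

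For 6 of the 10 members a promoter window held letters like those that NF-kappaB is known to bind. Stretches that hold them are shown because several members are themselves known NF-kappaB targets. RefSeq windows of GRCm38.p6, from 250 bases before to 50 bases after a transcription start, were found for 7 of the 10 members (10 windows), not for Tlr4, Relb and Nfkb1. Each window was searched on both strands for GGNNNTTCC, a loose form of the kappaB element, and for GGNNTTTCC, a stricter form whose matches all count as loose matches too. The loose form was found for 6 of the 7 members, all but Birc3, and the strict form for 4, which are Myd88, Nfkb2, Nfkbia and Tnfaip3. The only match of Myd88 lies after its start. Over all genes with a window, 20.7% held the loose form and 6.6% the strict form (18.5% and 5.8% of the 32851 windows). The stretches below are 30 bases each, written 5′ to 3′ along the gene's strand. Capitals mark the bases of a match on either strand, and positions are counted back from a RefSeq start. In the stretches of Tlr2, Nfkbie and Nfkb2 shown, the matches are of the loose form only. For Tlr2, Tnfaip3 and Nfkb2 that start lies inside the gene span given below. A match is a description of letters and not a measured binding site.
Tlr2, chr3:83841761-83841790, minus strand, 182 to 153 bases before the start: aggacacctgGGGAATTCCCacacggagcc
Nfkbia, chr12:55492806-55492835, minus strand, 188 to 159 bases before the start: ctggtcgggaGGACTTTCCagccactcagg
Nfkbia, chr12:55492657-55492686, minus strand, 39 to 10 bases before the start: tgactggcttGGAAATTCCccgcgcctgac
Nfkbie, chr17:45555585-45555614, plus strand, 115 to 86 bases before the start: cagcaaacagGGGGATTCCggaggggcggg
Tnfaip3, chr10:19015411-19015440, minus strand, 30 to 1 bases before the start: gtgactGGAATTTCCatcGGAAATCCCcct
Nfkb2, chr19:46304688-46304717, plus strand, 49 to 20 bases before the start: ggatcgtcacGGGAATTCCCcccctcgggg

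The 9 libraries held between 26750226 and 35976589 counts each, so a single count corresponds to 0.0271 to 0.0403 counts per 1e6 (CPM). Control 3 and Val+PA 2 differed more from the rest of their groups than any other library did. For the mitochondrial transcript mt-Co1, for example, they had 1229 and 865 CPM against 2935 to 5303 CPM in the other 7. In the summed level of the 13 mitochondrially encoded genes these 2 libraries went opposite ways. Control 3 was the highest at 7443 CPM and Val+PA 2 the lowest at 4612 CPM, against 6213 to 7397 CPM in the other 7. Of 6 myoblast markers (Myod1, Myf5, Pax7, Cdh15, Des, Myog) all were detected. Their summed level was 1321 to 1566 CPM in Control, 2131 to 2253 CPM in Valine and 2013 to 3389 CPM in Val+PA. Most of that sum was Des, at 1090 to 1356 CPM in Control, 1894 to 2001 CPM in Valine and 1818 to 3148 CPM in Val+PA. The 10 leukocyte markers summed to 2.66 to 4.44 CPM in Control, 7.09 to 8.11 CPM in Valine and 7.94 to 9.31 CPM in Val+PA. Of the defining leukocyte genes, Itgam had 0 counts, Adgre1 had 1 and Ptprc had 33 over all 9 libraries. The 8 fibroblast markers summed to 1752 to 2386 CPM in Control, 4295 to 4432 CPM in Valine and 4066 to 5678 CPM in Val+PA, and the 6 endothelial markers to between 3.75 and 6.98 CPM in any library. Of the 3 endothelial markers tested, Kdr was higher in both treated groups (log2 1.79 and 2.47), Tek was higher in Valine (log2 1.26), and Flt1 did not pass. Of the 8 fibroblast markers, 6 were higher in Valine and 7 in Val+PA, and none was lower. Of the 13 mitochondrially encoded genes, 5 were lower in Valine, most of all mt-Nd2 (log2 -2.19, SE 0.50, and -1.18 without Control 3). In Val+PA 0 passed, and mt-Nd1 had the smallest p (log2 -0.82, and -0.21 without Control 3). It passed there without Control 1 (adjusted p = 0.0384) or Control 2 (0.0147; edgeR's quasi-likelihood test). The part of these levels in the results below was not tested.

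Both treated groups had more Tlr2 mRNA and less mRNA of the brake Tnfaip3 than the starved Control wells. Tlr4 was higher in both too, but Val+PA 2 lay inside the Control range. Both Tlr4 calls were lost when certain single libraries were left out. Between Valine and Control, 4 of the 9 members tested passed an adjusted p of 0.05 (edgeR's quasi-likelihood test with Benjamini-Hochberg adjustment over 18415 genes). Tlr2 and Tlr4 were higher, and Tnfaip3 and Myd88 were lower. Over all genes tested, 41.9% passed in this comparison, 20.8% higher and 21.1% lower, so the members' share of 4 in 9 is near that background. The values of 5 of the 9 members did not overlap between the 2 groups, against 59.0% of all genes. The median log2 fold change was 0.26 over the 9 members and -0.005 over all genes.

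Of the 9 members, 5 passed between Val+PA and Control. Tlr2, Tlr4, Nfkbie and Relb were higher, and Tnfaip3 was lower. Over all genes 39.2% passed, 20.4% higher and 18.8% lower. The values of 6 of the 9 members did not overlap, against 45.5% of all genes, and the median log2 fold change was 0.32 over the members and -0.002 over all genes. Both comparisons use the same 3 Control libraries, so their values are given side by side and are not independent of each other. None of the 9 members passed between Val+PA and Valine, as described further below.

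**Figure D1:**
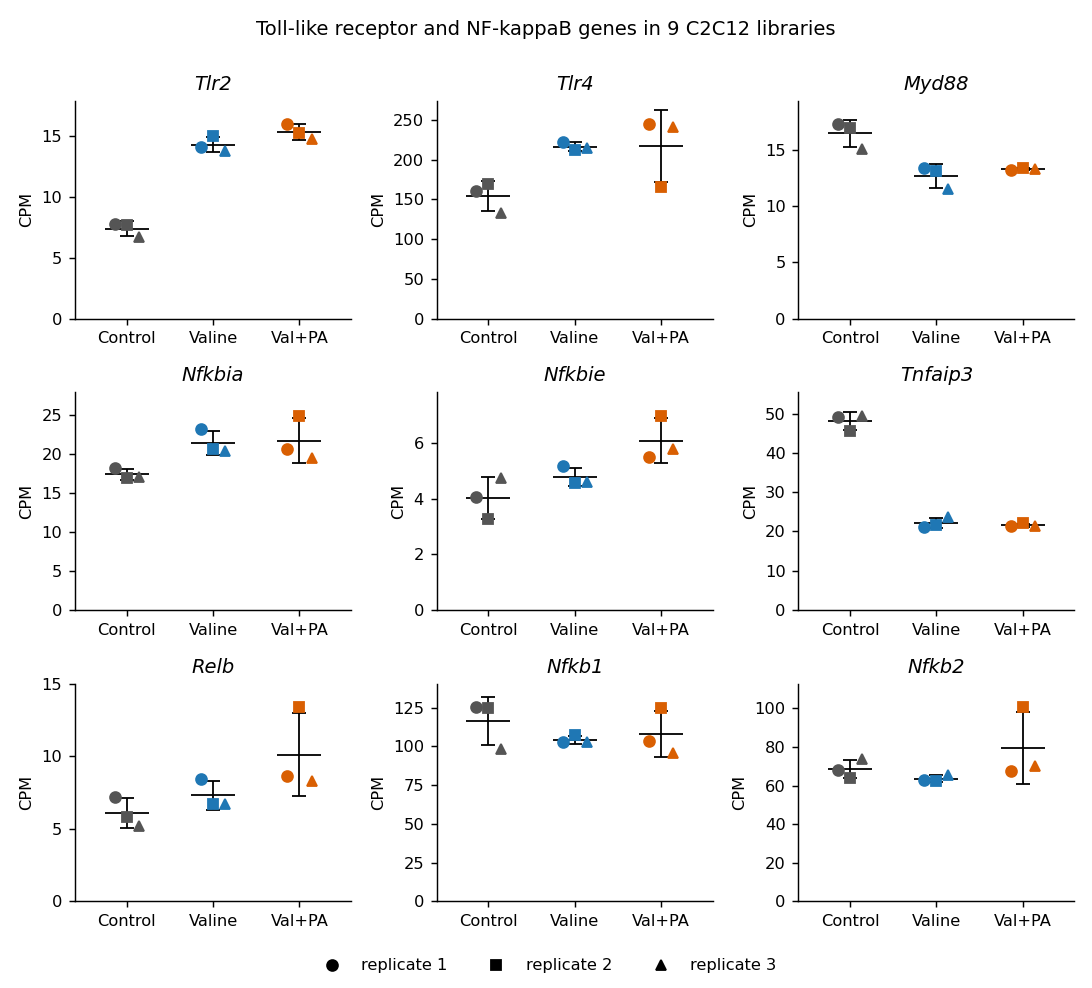
Each panel plots 1 of the 9 tested members, with the CPM of every library on a linear axis that starts at 0 and the 3 groups side by side. Marker shapes give the replicate number, long bars the group mean and whiskers the SD (n = 3). In Tlr2 all 6 treated libraries lie above the 3 Control libraries and in Tnfaip3 all 6 lie below them, whereas in Relb and Nfkb2 the library Val+PA 2 lies far above the rest.

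The receptors come first. Tlr2 (ENSMUSG00000027995, chr3:83836272-83841767, minus strand, GRCm38) encodes the receptor for bacterial lipoproteins, which works as a dimer with TLR1 or TLR6. Its level was 7.76, 7.69 and 6.69 CPM in Control, 14.1, 15.0 and 13.8 CPM in Valine, and 16.0, 15.2 and 14.7 CPM in Val+PA. The 6 treated libraries were all above the 3 Control libraries, with no overlap. The mean was 7.38 ± 0.60 CPM (SD, n = 3) in Control and 14.3 ± 0.63 CPM in Valine, a 1.93-fold difference (log2 0.95, SE 0.12, adjusted p = 6.45e-05 by edgeR's quasi-likelihood test). In Val+PA the mean was 15.3 ± 0.63 CPM, 2.07-fold the Control level (log2 1.05, SE 0.12, adjusted p = 3.12e-05 by the same test). Both calls held under all 22 alternative settings, including those without Control 3 or Val+PA 2.

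Tlr4 (ENSMUSG00000039005, chr4:66827584-66930284, plus strand) encodes the receptor for bacterial lipopolysaccharide, which needs the partners MD-2 (Ly96) and CD14. Its level was 161, 170 and 133 CPM in Control, 223, 212 and 215 CPM in Valine, and 245, 165 and 242 CPM in Val+PA. The Valine libraries were all above the Control libraries, whereas Val+PA 2 lay inside the Control range. Tlr4 was 1.40-fold higher in Valine (log2 0.48, SE 0.15, adjusted p = 0.0199) and 1.40-fold higher in Val+PA (log2 0.49, SE 0.15, adjusted p = 0.0196; edgeR's quasi-likelihood test). The Valine call was lost without Control 3 (log2 0.39, adjusted p = 0.0617), Valine 1 (0.0631) or Valine 3 (0.0525), over a range of 2.98e-05 to 0.0631 across the alternatives. The Val+PA call was lost without Control 3 (log2 0.39, adjusted p = 0.0587), Val+PA 1 (0.0665) or Val+PA 3 (0.0816) and in a fit of the 2 groups alone (0.0605), over a range of 1.92e-06 to 0.0816.

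The rest of the receptor list had few or no counts for most genes. Of 17 receptors and co-receptors, 9 had too few counts to test, and Tlr8, Tlr11 and Tlr12 had 0 counts in all 9 libraries. Of the 8 tested, 3 were higher in Valine and 4 in Val+PA (20.8% and 20.4% of all genes), and none was lower (21.1% and 18.8%). The median log2 fold change of these 8 was 0.42 and 0.30. The largest rise was that of Cd36, a fatty acid transporter that also serves as a co-receptor of TLR2, from 0.0962, 0.365 and 0.403 CPM in Control to 0.930 to 1.39 CPM in Valine and 0.769 to 1.14 CPM in Val+PA. Its fold change was 4.24 in Valine (log2 2.08, SE 0.41, adjusted p = 0.00156) and 3.29 in Val+PA (log2 1.72, SE 0.42, adjusted p = 0.0063, edgeR's quasi-likelihood test).

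Cd14, which hands lipopolysaccharide to TLR4, was at 11.0, 10.0 and 11.5 CPM in Control, 11.2, 9.97 and 9.85 CPM in Valine, and 13.5, 19.5 and 16.5 CPM in Val+PA. The 3 Val+PA libraries were above all 6 others. Cd14 passed against Control in Val+PA (log2 0.61, SE 0.15, adjusted p = 0.00621) and not in Valine (log2 -0.07, SE 0.15, adjusted p = 0.756; edgeR's quasi-likelihood test). The direct difference between Val+PA and Valine was log2 0.67 (SE 0.15) with an adjusted p of 0.192 in that test. Ly96, the MD-2 partner, did not pass, with a log2 fold change of -0.28 in Valine and -0.51 in Val+PA. Neither did Tlr3, the receptor for double-stranded RNA, with 0.43 in Valine and -0.20 in Val+PA. The latter value turned to 0.04 without Val+PA 2. The Tlr3 difference in Valine passed without that library (adjusted p = 0.0464, edgeR's quasi-likelihood test).

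Myd88 (ENSMUSG00000032508, chr9:119335934-119341411, minus strand) encodes the adaptor that links most Toll-like receptors and the IL-1 receptors to the IRAK kinases. Its level was 17.3, 17.0 and 15.1 CPM in Control, 13.5, 13.1 and 11.5 CPM in Valine, and 13.2, 13.4 and 13.4 CPM in Val+PA. All 6 treated libraries were below the 3 Control libraries. Myd88 was lower in Valine at 0.77 times the Control level (log2 -0.38, SE 0.12, adjusted p = 0.0215), while the Val+PA difference at 0.808 times did not pass (log2 -0.31, SE 0.12, adjusted p = 0.0549; edgeR's quasi-likelihood test). The Valine call was lost without Control 1, Control 2, Valine 2 or Valine 3 (adjusted p = 0.0578 to 0.111), with library size alone and with no filter, and the Val+PA difference passed without Control 3 (log2 -0.36, adjusted p = 0.0285). Exons of Myd88 overlap those of Acaa1a on the opposite strand, which had 24091 counts to 4152 of Myd88 over the 9 libraries and was higher in Val+PA (log2 1.14, adjusted p = 0.00197). The strand setting of the counting is not given in the sources used here, so reads of the 2 genes may not be told apart.

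Downstream of MyD88, 26 of 27 adaptors and kinases were tested. In Valine 4 were higher and 6 lower, and in Val+PA 5 were higher and 5 lower. The shares called either way over all genes were 41.9% and 39.2%. The largest rise in both was that of Peli2, an E3 ligase of the Pellino family that acts on IRAK proteins, from 27.6 to 29.4 CPM in Control to 95.9 to 98.5 CPM in Valine and 86.7 to 96.3 CPM in Val+PA. That is 3.42-fold in Valine (log2 1.77, SE 0.09, adjusted p = 1.02e-07) and 3.23-fold in Val+PA (log2 1.69, SE 0.09, adjusted p = 1.39e-07, edgeR's quasi-likelihood test). The largest fall in Valine was that of Irak2, a kinase-like partner of IRAK1, at 0.566 times the Control level (log2 -0.82, SE 0.14, adjusted p = 0.000723). In Val+PA it was that of Ecsit, an adaptor of TRAF6 that also helps assemble mitochondrial complex I, at 0.467 times (log2 -1.10, SE 0.14, adjusted p = 5.97e-05, edgeR's quasi-likelihood test).

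The IKK genes themselves did not pass in either treated group. Ikbkb, a catalytic subunit, had a log2 fold change of 0.15 in Valine and 0.11 in Val+PA. Chuk, the other catalytic subunit, had 0.01 and -0.07, and its Val+PA value was 0.08 without Val+PA 2. Ikbkg, the regulatory subunit NEMO, had -0.25 (adjusted p = 0.0504, edgeR's quasi-likelihood test) and -0.03. It passed in Valine without Val+PA 2 (adjusted p = 0.0211). Traf6, the ligase that relays MyD88 signals to IKK, had -0.09 and -0.03, and the latter was 0.03 without Val+PA 2.

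Of the inhibitors, Tnfaip3 moved most. Tnfaip3 (ENSMUSG00000019850, chr10:19000910-19015657, minus strand) encodes A20, a ubiquitin-editing enzyme that shuts off IKK activation. The kappaB letters shown above lie within the last 30 bases before a RefSeq start that is itself inside this gene span. The level of Tnfaip3 was 49.2, 45.5 and 49.5 CPM in Control, 21.3, 21.6 and 23.7 CPM in Valine, and 21.3, 22.1 and 21.5 CPM in Val+PA. The 6 treated libraries lay far below the 3 Control libraries and close to each other. Tnfaip3 was 2.17-fold lower in Valine (log2 -1.12, SE 0.10, adjusted p = 5.27e-06) and 2.22-fold lower in Val+PA (log2 -1.15, SE 0.10, adjusted p = 3.9e-06; edgeR's quasi-likelihood test). Both calls held under all 22 alternative settings.

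Nfkbia (ENSMUSG00000021025, chr12:55489410-55492647, minus strand) encodes IkappaB-alpha, the classical cytoplasmic inhibitor of the p65 dimers. Its level was 18.2, 16.9 and 17.0 CPM in Control, 23.2, 20.6 and 20.3 CPM in Valine, and 20.6, 24.9 and 19.4 CPM in Val+PA. All 6 treated libraries were above the 3 Control libraries, by a narrow margin. The log2 fold change was 0.30 (SE 0.12, adjusted p = 0.0704) in Valine and 0.32 (SE 0.12, adjusted p = 0.0592) in Val+PA, so neither passed edgeR's quasi-likelihood test. The Valine difference passed in 8 of the alternative settings and the Val+PA difference in 6, with adjusted p from 0.0151 to 0.226 and from 0.0325 to 0.156.

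Nfkbie (ENSMUSG00000023947, chr17:45555703-45563169, plus strand) encodes IkappaB-epsilon, a slower inhibitor of p65 and c-Rel dimers. Its level was 4.04, 3.25 and 4.75 CPM in Control, 5.16, 4.57 and 4.60 CPM in Valine, and 5.48, 6.98 and 5.78 CPM in Val+PA. The Val+PA libraries were above all 6 others, while Valine and Control overlapped. Nfkbie was 1.52-fold higher in Val+PA (log2 0.60, SE 0.17, adjusted p = 0.016), and the Valine difference did not pass (log2 0.26, SE 0.17, adjusted p = 0.264; edgeR's quasi-likelihood test). The Val+PA call was lost without Control 2 (log2 0.47, adjusted p = 0.0763), the highest adjusted p over its alternatives, of which the lowest was 0.0041.

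Of the 7 IkappaB family genes 6 were tested, with 0 higher and 1 lower in Valine, and 1 higher and 1 lower in Val+PA. Among all genes, 41.9% and 39.2% were called either way. The gene lower in both was Nfkbiz, which encodes the nuclear IkappaB-zeta, a co-activator of secondary targets such as Il6. It fell from 18.4 to 21.5 CPM in Control to 11.1 to 11.6 CPM in Valine and 11.3 to 13.1 CPM in Val+PA, with log2 -0.84 (SE 0.12, adjusted p = 0.000156) and -0.76 (SE 0.12, adjusted p = 0.000336) by edgeR's quasi-likelihood test. Nfkbib, the beta form, did not pass, with log2 -0.59 in Valine and -0.15 in Val+PA. Its Val+PA value turned to 0.06 without Control 1 or without Val+PA 3, and its Valine difference passed without Val+PA 2 (adjusted p = 0.0261). Bcl3, a nuclear partner of p50 and p52, had 142 counts over the 9 libraries and did not pass (log2 0.69 and 1.02).

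**Figure D2:**
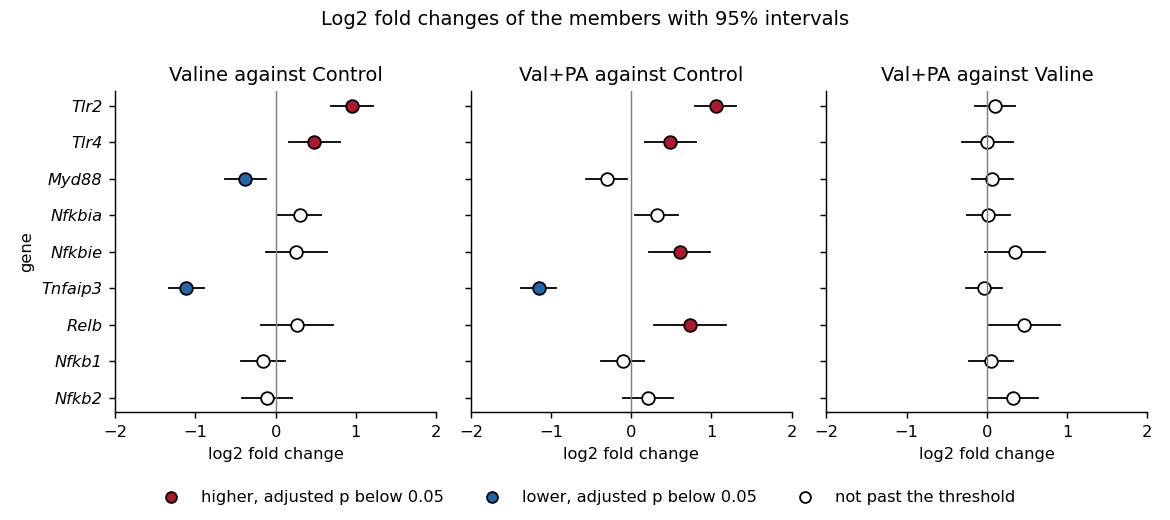
Points give the log2 fold change of each tested member in the 3 comparisons, lines the 95% interval from edgeR's fit, and a filled point marks an adjusted p below 0.05 (red higher, blue lower). The largest values are those of Tlr2 and Tnfaip3 in both comparisons with Control, and no point is filled between Val+PA and Valine.

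Of the 17 negative regulators tested, Tnfaip3 among them, 4 were higher and 4 lower in Valine, and 4 were higher and 3 lower in Val+PA. All genes together gave 41.9% and 39.2% called either way. Nlrc5, a NOD-like receptor that drives MHC class I genes and has been described as a restraint on IKK, was at 8.08 to 8.94 CPM in Control, 18.2 to 19.6 CPM in Valine and 21.7 to 29.2 CPM in Val+PA. It was 2.22-fold higher in Valine (log2 1.15, SE 0.14, adjusted p = 3.84e-05) and 2.90-fold higher in Val+PA (log2 1.54, SE 0.14, adjusted p = 3.96e-06, edgeR's quasi-likelihood test). Il1rl1, the IL-33 receptor ST2, was 7.40-fold lower in Valine (log2 -2.89, SE 0.39, adjusted p = 0.000113) and 3.69-fold lower in Val+PA (log2 -1.88, SE 0.36, adjusted p = 0.00129, edgeR's quasi-likelihood test). Without Val+PA 1 the Val+PA value was log2 -2.56. Its levels were low throughout, at 1.92 to 2.22 CPM in Control and 0.217 to 0.950 CPM in the treated libraries.

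Of the subunits of NF-kappaB itself, Relb (ENSMUSG00000002983, chr7:19606217-19629438, minus strand) encodes the one that pairs with p52 in the non-canonical arm. Its level was 7.21, 5.80 and 5.20 CPM in Control, 8.48, 6.75 and 6.71 CPM in Valine, and 8.63, 13.4 and 8.32 CPM in Val+PA. The Val+PA libraries were above the Control libraries without overlap, with Val+PA 2 far above the other two, and Valine overlapped Control. Relb was 1.66-fold higher in Val+PA (log2 0.73, SE 0.21, adjusted p = 0.0141), and the Valine difference did not pass (log2 0.27, SE 0.21, adjusted p = 0.329; edgeR's quasi-likelihood test). Without Val+PA 2 the Val+PA value was log2 0.48 (adjusted p = 0.0408), and without both Control 3 and Val+PA 2 it was 0.38 (adjusted p = 0.0467), the alternatives ranging from 0.000391 to 0.0476.

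Nfkb1 (ENSMUSG00000028163, chr3:135584655-135691547, minus strand) encodes p105, the precursor of p50. Its level was 126, 125 and 98.6 CPM in Control, 103, 107 and 103 CPM in Valine, and 103, 125 and 95.8 CPM in Val+PA. The groups overlapped, with Control 3 low and Val+PA 2 high within their groups. Nfkb1 did not pass, with log2 -0.16 (SE 0.12, adjusted p = 0.333) in Valine and -0.11 (SE 0.12, adjusted p = 0.524) in Val+PA by edgeR's quasi-likelihood test. Without both Control 3 and Val+PA 2 it was lower in both, with log2 -0.26 (adjusted p = 0.00194) and -0.33 (adjusted p = 0.000712). No other alternative gave a call, and the adjusted p reached 0.624 and 0.903.

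Nfkb2 (ENSMUSG00000025225, chr19:46304320-46312385, plus strand) encodes p100, the precursor of p52 and an inhibitor of RelB. Its level was 68.0, 64.2 and 73.5 CPM in Control, 62.8, 62.2 and 65.5 CPM in Valine, and 67.4, 101 and 70.3 CPM in Val+PA. Val+PA 2 was far above the other 8 libraries, which lay within a narrow band. Nfkb2 did not pass, with log2 -0.11 (SE 0.14, adjusted p = 0.568) in Valine and 0.21 (SE 0.14, adjusted p = 0.262) in Val+PA, and the latter was 0.01 (adjusted p = 0.95) without Val+PA 2 (edgeR's quasi-likelihood test; 0.102 to 0.95 over the alternatives). Nfkb2 overlaps Psd and AC114539.1 on the opposite strand, which had 3277 and 480 counts to its 20649, so their share of its reads cannot be told apart here.

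The other 2 subunits, Rela (p65) and Rel (c-Rel), carry the transactivation domains of the canonical arm. Rela was at 29.3, 25.7 and 37.6 CPM in Control, 19.5, 20 and 19.6 CPM in Valine, and 20.1, 28.4 and 20.7 CPM in Val+PA. It was lower in Valine (log2 -0.64, SE 0.16, adjusted p = 0.00777) and did not pass in Val+PA (log2 -0.42, SE 0.16, adjusted p = 0.0612; edgeR's quasi-likelihood test), where it passed without Control 2 (0.0333) or without Val+PA 2 (0.00731). Rel was at 18.1 to 19.1 CPM in Control, 12.7 to 14.3 CPM in Valine and 9.96 to 14.1 CPM in Val+PA. It was lower in both (log2 -0.46, adjusted p = 0.0199, and log2 -0.56, adjusted p = 0.00778), though its Valine call was lost without Control 2, Valine 1 or Valine 2 (0.051 to 0.085). Of the 5 subunits, 0 were higher and 2 lower in Valine, and 1 was higher and 1 lower in Val+PA. The shares called over all genes were 41.9% and 39.2%.

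Birc3 (ENSMUSG00000032000, chr9:7848699-7873186, minus strand) encodes cIAP2, a ubiquitin ligase of the TNF receptor complex that is induced by NF-kappaB in many cells. The Control libraries held 1, 1 and 4 counts of it, the Valine libraries 2, 1 and 1, and the Val+PA libraries 1, 0 and 0. These are at or near the floor of 3 counts that a value of 0 allows, and no fold is given. Its close relative Birc2, which encodes cIAP1, was abundant at 37.5 to 44.3 CPM in Control, 48.4 to 52.3 CPM in Valine and 42.6 to 51.1 CPM in Val+PA. Birc2 was higher in Valine (log2 0.31, SE 0.11, adjusted p = 0.0396, edgeR's quasi-likelihood test), a call lost without Control 1, Control 2 or any of the 3 Valine libraries (0.0757 to 0.145 in turn). Birc2 did not pass in Val+PA (log2 0.23, adjusted p = 0.115), but passed there without Val+PA 2 (log2 0.31, adjusted p = 0.021; edgeR's quasi-likelihood test).

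Of 19 tested genes of TNF receptor signalling and the non-canonical arm, 1 was higher and 4 were lower in Valine. In Val+PA 3 were higher and 2 lower. Among all genes, 41.9% were called in Valine and 39.2% in Val+PA. Tnfrsf12a, the TWEAK receptor Fn14, which feeds the non-canonical arm in muscle, was at 217 to 245 CPM in Control, 77.8 to 88.5 CPM in Valine and 94.5 to 124 CPM in Val+PA. It was 2.72-fold lower in Valine (log2 -1.44, SE 0.12, adjusted p = 2.31e-06) and 2.15-fold lower in Val+PA (log2 -1.10, SE 0.12, adjusted p = 1.73e-05, edgeR's quasi-likelihood test). Cd40, another receptor of this family, was at 5.08 to 5.42 CPM in Control, 4.48 to 5.78 CPM in Valine and 6.99 to 9.89 CPM in Val+PA. It was higher in Val+PA (log2 0.65, SE 0.17, adjusted p = 0.00837) and did not pass in Valine (log2 -0.01, adjusted p = 0.976; edgeR's quasi-likelihood test).

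**Figure D3:**
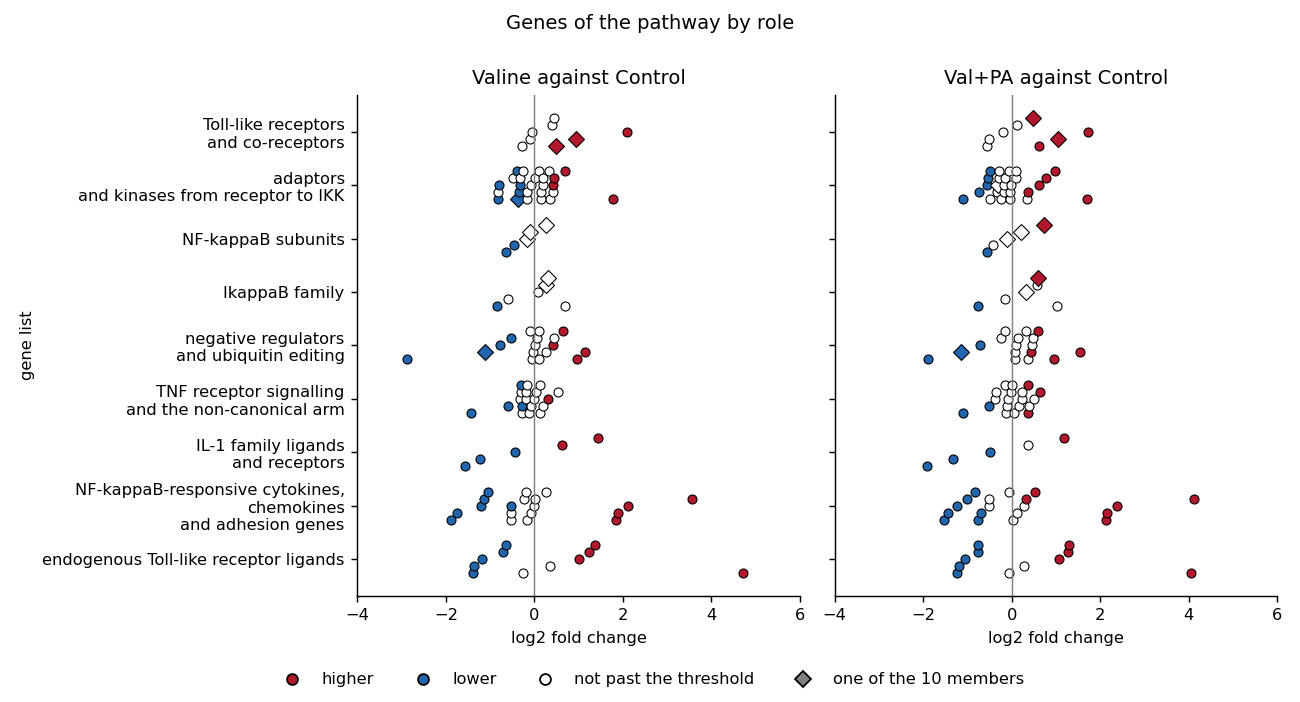
Each point is a tested gene of 9 lists ordered from receptor to ligand, placed by its log2 fold change against Control in Valine (left) and Val+PA (right), and shifted vertically only for legibility. Red and blue mark genes past the threshold, white those that did not pass, and diamonds the members. Each list except the receptors, and the subunits and IkappaB genes in Valine, holds genes past the threshold on both sides of 0.

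Levels were compared between members on the deposited signal, which scales each gene by a factor of its own. That factor was taken to be gene length, though the scaling is not stated in the sources used here. In Control the mean signal was highest for Tlr4 at 57.0 ± 8.69 (SD, n = 3), followed by Nfkb2 at 30.5 ± 1.14, Nfkbia at 22.0 ± 1.17 and Nfkb1 at 19.8 ± 3.11. Tnfaip3 at 13.6 ± 0.35 and Myd88 at 13.1 ± 1.27 came next, and Tlr2 at 5.01 ± 0.54, Relb at 3.20 ± 0.58 and Nfkbie at 2.68 ± 0.42 were the lowest of the tested members. Neighbours in this order whose libraries overlapped were Nfkbia and Nfkb1, Tnfaip3 and Myd88, and Relb and Nfkbie. In both treated groups Tlr2 stood above Tnfaip3, with means of 9.92 against 6.43 in Valine and 10.6 against 6.25 in Val+PA, whereas in Control it stood below. Birc3 had a mean signal of 0.03 in Control.

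**Figure D4:**
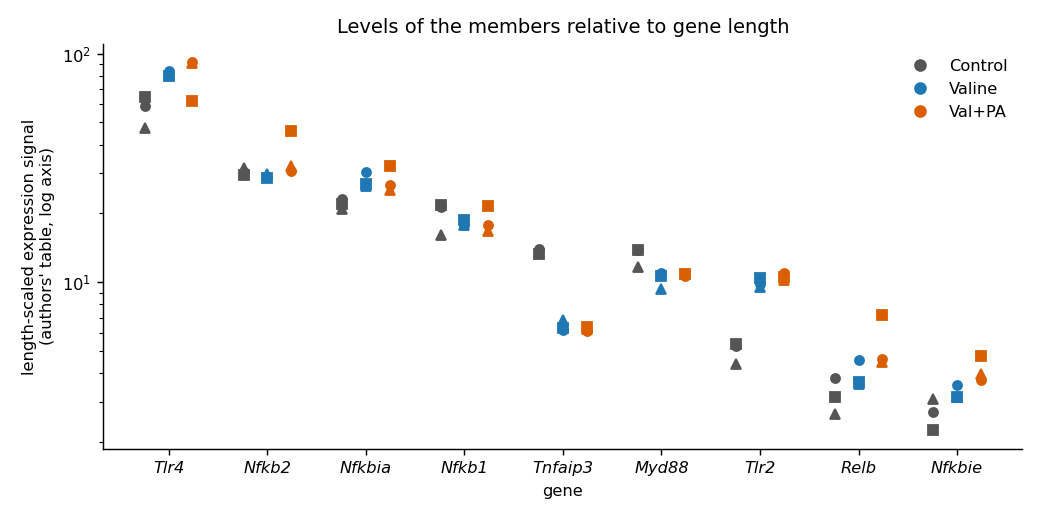
The deposited signal of each tested member, taken as length-scaled, is plotted on a log axis for the 9 libraries. Genes are ordered by their Control mean, with colours for the groups and marker shapes for the replicates (circle 1, square 2, triangle 3). Tlr4 is the highest member in each of the 9 libraries, and Tlr2 and Tnfaip3 change places between Control and the treated libraries.

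Between Val+PA and Valine, which differ in palmitic acid, in plate and in the hours of valine given, none of the 9 members passed edgeR's quasi-likelihood test. Over all 18415 genes 0% passed as well, with a smallest adjusted p of 0.168, so the count says nothing particular of the members. At an unadjusted p below 0.05 there were 2428 genes and 2 of the 9 members, Relb and Nfkb2. DESeq2 called 212 genes and limma-voom 0, and neither called a member. The values of 2 of the 9 members, Nfkbie and Nfkb2, did not overlap, against 24.6% of all genes. The median log2 difference was 0.07 over the members and 0.004 over all genes.

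The intervals of these differences bound what was missed. For Tlr2 the log2 difference was 0.10 with a 95% interval of -0.15 to 0.35, and for Tnfaip3 it was -0.04 with -0.26 to 0.18. For Tlr4 it was 0.01 with -0.32 to 0.32, and its sign changed with the scaling and with the libraries left out. Nfkbia at 0.02 (-0.25 to 0.29), Myd88 at 0.07 (-0.18 to 0.33) and Nfkb1 at 0.05 (-0.22 to 0.32) were likewise centred near 0. The largest differences were those of Relb at 0.47 (0.02 to 0.91), Nfkbie at 0.35 (-0.03 to 0.72) and Nfkb2 at 0.32 (0.01 to 0.63), all with adjusted p above 0.36. These intervals are not adjusted for the number of genes. Those of Relb and Nfkb2 lie above 0, and those of the other 7 members tested hold 0.

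In the same fit, none of the wider lists had a gene past the threshold between Val+PA and Valine either. The smallest adjusted p in the pathway was that of Ptgs2, higher in Val+PA by log2 1.05 (SE 0.19, adjusted p = 0.168, edgeR's quasi-likelihood test). Cd14 followed at 0.67 (adjusted p = 0.192), then Il33 at -0.70 (0.21) and Cd40 at 0.65 (0.218). In the other lists the gene with the smallest p was Nlrc5 at 0.39, Hspa1b at 0.33, Tab3 at -0.42, mt-Nd4 at 1.26 and Nfkbil1 at 0.48, with adjusted p from 0.321 to 0.392. Among the subunits it was Relb at 0.47 (adjusted p = 0.369 in the same test), whose Val+PA and Valine values overlapped. Ptgs2, Cd14 and Il33 did pass with DESeq2, with no filter on low counts, and without both Control 3 and Val+PA 2. Cd40 passed with DESeq2 and with no filter, and mt-Nd4 with no filter and without both libraries. For each of these genes except Relb the 3 Val+PA libraries lay outside the range of the 3 Valine libraries. Over all genes tested, 24.6% did not overlap between these groups. The genes were named for the smallest p of their list in this same comparison, so a lack of overlap adds no support.

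The known outputs of the pathway did not move one way. Of 30 NF-kappaB-responsive cytokine, chemokine, adhesion and survival genes, 19 had enough counts to be tested. In Valine 4 were higher and 6 lower, with a median log2 fold change of -0.19. In Val+PA 6 were higher and 7 lower, with a median of -0.06. All genes together gave 41.9% called in Valine and 39.2% in Val+PA. Icam1, a standard endothelial target, had 9 counts over all libraries, and Cxcl2 and Cxcl3 had 0.

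Among the cytokines, Il6 was at 1.09, 0.911 and 0.967 CPM in Control, 3.59, 3.55 and 3.96 CPM in Valine, and 5.75, 1.70 and 5.44 CPM in Val+PA. All 6 treated libraries were above Control, with Val+PA 2 the lowest of them. Il6 was 3.73-fold higher in Valine (log2 1.90, SE 0.38, adjusted p = 0.00183) and 4.35-fold higher in Val+PA (log2 2.12, SE 0.38, adjusted p = 0.00088; edgeR's quasi-likelihood test). Ptx3, a secreted pattern recognition protein, had the largest rise, from 0.0962, 0.273 and 0.322 CPM in Control to 2.52 to 3.02 CPM in Valine and 2.99 to 5.35 CPM in Val+PA. That is 11.9-fold (log2 3.57, SE 0.36, adjusted p = 1.16e-05) and 17.5-fold (log2 4.13, SE 0.35, adjusted p = 3.18e-06; edgeR's quasi-likelihood test).

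The monocyte chemokine Ccl2 was at 8.18, 9.57 and 14.8 CPM in Control, 2.99, 2.82 and 3.90 CPM in Valine, and 4.48, 2.08 and 4.61 CPM in Val+PA, 3.34-fold lower in Valine (log2 -1.74, SE 0.30, adjusted p = 0.000589) and 2.89-fold lower in Val+PA (log2 -1.53, SE 0.29, adjusted p = 0.00138; edgeR's quasi-likelihood test). Its neighbour Ccl7 was 3.68-fold lower in Valine (log2 -1.88, SE 0.31, adjusted p = 0.000485), with 15.5, 16.3 and 38.0 CPM in Control and 5.49 to 7.04 CPM in Valine. The neutrophil chemokine Cxcl1 was lower in Val+PA (log2 -1.23, SE 0.31, adjusted p = 0.00799) and did not pass in Valine (log2 -0.53, adjusted p = 0.174). Cxcl5 was lower in Val+PA (log2 -1.02, SE 0.35, adjusted p = 0.0376), a call lost without Control 2, Control 3, Valine 1, Valine 2 or Val+PA 2 (adjusted p = 0.0546 to 0.142) and at log2 -0.66 without Val+PA 2, and did not pass in Valine (log2 -0.24).

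Ptgs2, the inducible prostaglandin synthase COX-2, was at 96.3, 101 and 76.7 CPM in Control, 65.2, 65.7 and 60.0 CPM in Valine, and 182, 102 and 111 CPM in Val+PA. Valine lay below all Control libraries and Val+PA above them. It was lower in Valine (log2 -0.52, SE 0.19, adjusted p = 0.0456) and higher in Val+PA (log2 0.53, SE 0.19, adjusted p = 0.0464; edgeR's quasi-likelihood test). Leaving out either Control 1 or Control 2, or any Valine library, lost the Valine call (adjusted p = 0.0958 to 0.134). The Val+PA call was lost when any single Control or Valine library was left out, and without Val+PA 1 the value was log2 0.22 (adjusted p = 0.209). Vcam1, an adhesion molecule of myoblasts, did not pass, with log2 -0.07 in both, and turned to 0.01 in both without Control 3.

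**Figure D5:**
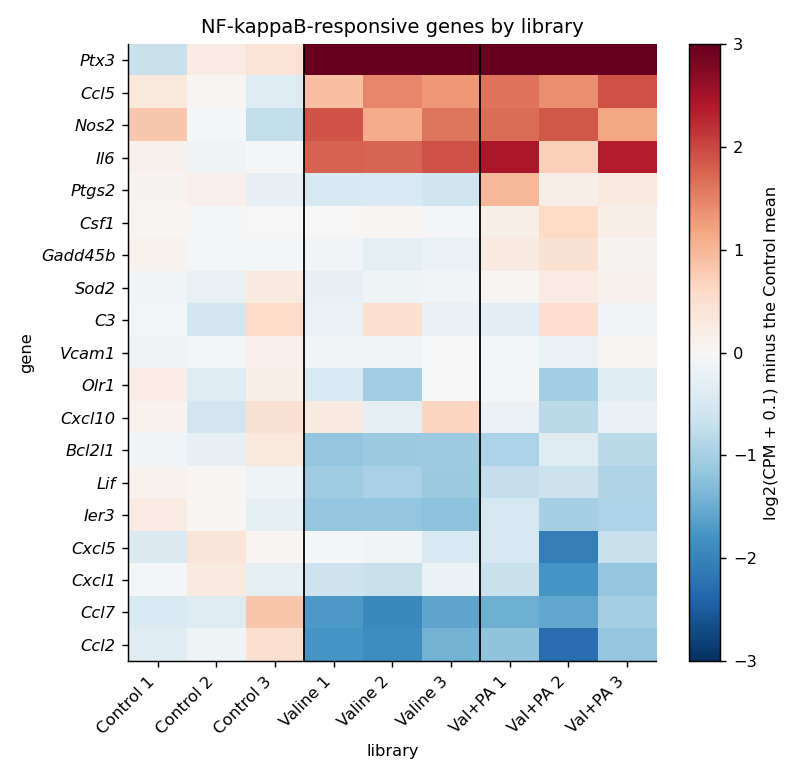
The heat map shows the 19 tested NF-kappaB-responsive genes in the 9 libraries, coloured by log2(CPM + 0.1) minus the Control mean of the gene on a scale that ends at 3 in either direction, with genes ordered by their log2 fold change between Val+PA and Control. Ptx3, Ccl5, Nos2 and Il6 are red in the treated libraries, Ccl2 and Ccl7 are blue, and Ptgs2 is blue in Valine and red in Val+PA.

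Of the IL-1 family, whose receptors share MyD88 with the Toll-like receptors, 5 of 7 genes were tested. In Valine 2 were higher and 3 lower, and in Val+PA 1 was higher and 3 lower. The shares called over all genes were 41.9% and 39.2%. Il18 was higher in both, from 5.52 to 8.50 CPM in Control to 18.7 to 21.9 CPM in Valine and 13.99 to 21.0 CPM in Val+PA (log2 1.43, SE 0.19, adjusted p = 9.7e-05, and log2 1.18, SE 0.19, adjusted p = 0.000429; edgeR's quasi-likelihood test). Il1rn, the IL-1 receptor antagonist, had the largest fall in Valine (log2 -1.56, SE 0.18, adjusted p = 3.52e-05). Il33, the ligand of Il1rl1, had the largest in Val+PA, from 54.1, 70.7 and 63.4 CPM in Control to 20.9, 12.6 and 16.1 CPM (log2 -1.92, SE 0.17, adjusted p = 5.24e-06; edgeR's quasi-likelihood test). Il33 was lower in Valine too, at 24.8 to 29.3 CPM (log2 -1.22).

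The molecules of the cell and its matrix that have been described as ligands of TLR2 and TLR4 did not move one way. Of 11 tested, 4 were higher and 5 lower in both treated groups. Among all genes, 41.9% were called in Valine and 39.2% in Val+PA. Higher were Dcn, Fn1, Bgn and Tnc, which encode matrix proteins, and lower were Hspa1a, Hspa1b, Hsp90b1, Hspd1 and Hmgb1, which encode chaperones and, for Hmgb1, a chromatin protein. Neither the matrix gene Vcan nor the chaperone gene Hspb1 passed in either group. Dcn, the matrix proteoglycan decorin, rose most, from 13.1, 11.4 and 4.51 CPM in Control to 239 to 264 CPM in Valine and 113 to 208 CPM in Val+PA (log2 4.71, SE 0.34, adjusted p = 1.01e-06, and log2 4.04, SE 0.33, adjusted p = 2.26e-06; edgeR's quasi-likelihood test). Dcn is also in the fibroblast marker list above. Hspa1b fell most in Valine (log2 -1.39, SE 0.12, adjusted p = 4.82e-06), though its near-identical copy Hspa1a makes the split of reads between them uncertain. Hspd1, a mitochondrial chaperone, fell most in Val+PA, to 219 to 285 CPM against 572 to 639 CPM in Control (log2 -1.25, SE 0.11, adjusted p = 3.59e-06; edgeR's quasi-likelihood test).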

How the data were processed

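RNA-seq counts were measured in 9 libraries, 3 each of Control, Valine and Val+PA. The authors deposited whole-number read counts per gene and a normalized expression signal. HISAT2, featureCounts, DESeq2 and GRCm38 stand in the submitters' processing notes without settings. The deposited signal equals each count times a factor of the gene and a factor of the library, tested on the values, and served for levels between genes and as an alternative unit. No unmapped column of per-sample values was found. Symbols and coordinates came from GENCODE M21 (97.1% of IDs matched), and promoter sequences from RefSeq.

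The function filterByExpr kept 18415 genes. After TMM scaling, edgeR 4.0.16 under R 4.3.3 fitted them (quasi-likelihood, group means, all 9 libraries, 6 residual degrees of freedom, two-sided, Benjamini-Hochberg at 0.05). SE is the absolute log2 fold change over the square root of F. The 95% intervals use the 11.9 degrees of freedom of that test. CPM are per TMM-scaled library. The fit was tested on simulated data. Alternatives were DESeq2 1.42.0, limma-voom (limma 3.58.1), other factors, filters, thresholds and samples, a replicate block, and limma on log2 of the signal plus 1 or 0.1.

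The members, the lists and the tests were chosen with earlier results of these data known. Named genes are all members, the called gene with the largest rise and fall of each list (or the smallest p), and a fixed set of subunits, kinases, ligases and targets. The genes listed together as ligands, markers, mt-Co1, Acaa1a, Psd, Ccl5 and Nos2 fall outside this rule and were picked with their values in view. No 2 libraries of a group were alike within sampling noise.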

Additional observations from a re-analysis of the deposited data

How the results depend on the processing

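Of the 27 log2 fold changes of members, 12 kept their direction and their side of the threshold under all 22 alternatives, and of the 100 fold changes of named genes 59 did. Between Valine and Control, 2 members were higher and 2 lower. The count of higher members was 4 without both Control 3 and Val+PA 2, 3 with the 2 groups alone, both signal fits, upper-quartile factors, library size alone and the 1 CPM filter, and 1 at a threshold of 0.01, and ran from 1 to 3 when single libraries were left out. The count of lower members was 3 without both libraries, 1 with library size alone, with no filter on low counts and at 0.01, and ran from 1 to 2 without single libraries. Between Val+PA and Control, 4 members were higher and 1 lower. The higher count was 5 with both signal fits, upper-quartile factors, library size alone and the 1 CPM filter, 3 with the 2 groups alone and 1 at 0.01, and ran from 3 to 4 without single libraries. The lower count was 2 with DESeq2, with RLE factors and with at least 1 CPM in 3 libraries, 3 without both Control 3 and Val+PA 2, and ran from 1 to 2 without single libraries. Between Val+PA and Valine 0 members passed in every alternative. Calls over all genes changed with the setting too. Between Valine and Control they were 10172 of 18799 genes without both libraries and 8844 of 17725 with the 2 groups alone. Of 18415 genes, 5092 passed at 0.01, 7561 with library size alone and 7718 in the main fit. Between Val+PA and Control the calls in the same order were 9362 of 18799, 5634 of 17531, and 4850, 7132 and 7219 of 18415. The causes were not tested.

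Each named value whose sign changed was small, the largest being -0.202 (Tlr3 between Val+PA and Control). Between Valine and Control they were Cd14 with library size alone (0.01), Vcam1 with library size alone (0.011) and without both libraries (0.016), and, without single libraries, Vcam1 (-0.116 to 0.014) and Chuk (-0.066 to 0.043). For Val+PA against Control they were Ikbkg with upper-quartile factors (0.013), library size alone (0.007) and without both libraries (0.055), Traf6 likewise (0.013, 0.006 and 0.049), and Chuk (0.113) and Vcam1 (0.074) without both. Without single libraries these ran from -0.083 to 0.037, -0.069 to 0.033, -0.162 to 0.081 and -0.114 to 0.013, Nfkbib from -0.475 to 0.061 and Tlr3 from -0.4 to 0.039. For Val+PA against Valine, Tlr4 was -0.003 with DESeq2, RLE factors, upper-quartile factors, at least 1 CPM in 3 libraries and the replicate block, -0.017 with limma-voom, -0.026 with library size alone and -0.023 on the signal with either offset, and ran from -0.09 to 0.169 without single libraries. Nfkbia was -0.017 with library size alone and -0.094 without both libraries (-0.091 to 0.093 without single ones), Nfkb1 -0.068 without both (-0.066 to 0.13) and Tnfaip3 ran from -0.072 to 0.012.

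The replicate block, which assumes that equal numbers in the labels pair the wells, gave the same counts of members, 2 higher and 2 lower in Valine and 4 higher and 1 lower in Val+PA, and 7369, 6935 and 0 calls over all genes against 7718, 7219 and 0. The labels tie equal numbers to no shared source, and the deviations of same-numbered libraries from their group means correlated at -0.409 to 0.238 across genes. Between Val+PA and Valine, calls over all genes rose from 0 to 212 with DESeq2, 763 with no filter and 604 without both Control 3 and Val+PA 2. Depth limits the genes with few counts, such as Birc3.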

Other observations

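The cell type markers measured beside the pathway moved too, with the same 3 Control libraries in both comparisons. Of the 6 myoblast markers, 3 were higher in both treated groups and none was lower. Among all genes, 20.8% were higher and 21.1% lower in Valine, and 20.4% and 18.8% in Val+PA. Myog, the factor that starts myotube formation, was at 0.673, 0.425 and 0.362 CPM in Control, 7.47, 7.06 and 6.45 CPM in Valine, and 5.08, 6.60 and 4.20 CPM in Val+PA (log2 3.82, SE 0.26, adjusted p = 6.24e-07, and log2 3.41, SE 0.26, adjusted p = 1.35e-06; edgeR's quasi-likelihood test). The intermediate filament gene Des was higher by log2 0.66 and 0.96, and the early factor Myf5 by 1.02 and 0.42. Myod1 did not pass, with 0.42 and 0.12. Neither did Pax7, with 0.025 and 0.243, nor Cdh15, with -0.121 and -0.237.

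Of the 10 leukocyte markers 5 had enough counts to be tested, and 3 were higher and 1 lower in both treated groups. The shares called over all genes were 41.9% in Valine and 39.2% in Val+PA. Cd68, a lysosomal glycoprotein, was at 2.05, 2.49 and 0.765 CPM in Control, 4.56 to 5.495 CPM in Valine and 5.07 to 6.65 CPM in Val+PA (log2 1.5, SE 0.30, adjusted p = 0.00167, and log2 1.67, SE 0.30, adjusted p = 0.000827; edgeR's quasi-likelihood test). Cd74 and Aif1 were higher too, at no more than 1.505 CPM in any library. Csf1r, with 113 counts over the 9 libraries, was lower by log2 -1.79 and -1.72. Among the 8 fibroblast markers, Ly6a was at 341 to 473 CPM in Control, 1340 to 1463 CPM in Valine and 1307 to 1641 CPM in Val+PA (log2 1.86, SE 0.14, adjusted p = 1.33e-06, and log2 1.94, SE 0.14, adjusted p = 9.89e-07; edgeR's quasi-likelihood test). Lum, with 3, 2 and 2 counts in the Control libraries, was at 5.65 to 7.47 CPM in Valine and 0.929 to 3.34 CPM in Val+PA. Pdgfra did not pass, with log2 0.26 and 0.23. These genes were named after their values were seen.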
